A study of Mus musculus with 48 samples.

Results

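The tibialis anterior muscle of WT control mice, which carried no tumor, was followed over 1 circadian day to find which genes rose and fell with a period of 24 h. The 12 libraries described here are all the WT control libraries of the series, 12 of 48, with 2 mice at each of 6 circadian times (CT18, CT22, CT26, CT30, CT34, and CT38). The other 36 libraries came from FoxP1 SkmKO control, WT KPC, and FoxP1 SkmKO KPC mice, with 12 in each group. A WT control mouse was a male of 39 to 55 weeks whose pancreas had been injected with saline in surgery. KPC mice received cells of the murine pancreatic line KPC FC1245 instead, and FoxP1 SkmKO mice carry FoxP1fl/fl and an ACTA1-Cre transgene, whose promoter drives Cre in muscle fibers. The labels and the methods name the WT mice C57BL/6J, whereas the design text of the series describes FoxP1fl/fl mice without Cre, and the study's own paragraph on limitations gives other ages. Mice had been kept in cycles of 12 h light and 12 h dark with lights on at clock time 6 and were then held in constant darkness, so CT18 was clock time 0 and CT26 was clock time 8. CT24 to CT36 is called subjective day here, the rest phase of a mouse, and the remaining hours are called subjective night. Each time was sampled in different mice on a single circadian day, so a repeat of the pattern in the following day was not measured.

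The circadian clock is a loop of transcription factors that runs in nearly every cell. CLOCK and ARNTL (also called BMAL1) bind E-box sequences and turn on the *Per* and *Cry* genes, whose proteins come back to repress them. In a further loop the receptors NR1D1 and NR1D2 (REV-ERB) repress, and the ROR receptors activate, *Arntl*. The same E-boxes drive the PAR bZIP activators DBP, TEF, and HLF, which compete with the repressor NFIL3 at D-box sequences. In skeletal muscle the clock is known to set the daily course of genes for glucose and lipid use.

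Values are FPKM, the fragments of a gene scaled by its length and by the size of the library. Each gene was fitted by least squares with a cosine curve of 24 h, which gave a basal level (the mean of the curve), an amplitude (the distance from the mean to the top), and a peak time on a scale from CT18 to CT42. Errors given with an amplitude or a peak time are standard errors over the 12 libraries. Genes with a mean of at least 1 FPKM were tested, and a gene was called rhythmic at a Benjamini-Hochberg adjusted p under 0.05 in an F test on 2 and 9 degrees of freedom.

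The 12 libraries held 15130110 to 19980205 counts on genes. The 8 marker genes of muscle fibers, such as *Acta1* with a mean of 23785 FPKM, summed to between 55821 and 68161 FPKM in every library, whereas 7 liver markers and 5 skin markers never summed to more than 2.74 and 0.976 FPKM. Both CT26 libraries stood apart from the others. The first principal component held 30.4% of the variance, with loadings of 0.681 and 0.447 for the CT26 libraries and of -0.341 to 0.142 for the other 10. In the CT26 libraries, the departure from each gene's median fell with gene length (Spearman correlation across genes of -0.472 and -0.422, against -0.110 to 0.267 in the other 10). The CT26 libraries of the other 3 groups lay between -0.203 and 0.0680. At other times these groups reached -0.378 (WT KPC, CT38 replicate 1) and 0.333 (FoxP1 SkmKO control, CT18 replicate 1). Counts are therefore given with and without both CT26 libraries, a choice made after the data were seen, and the adjusted p without CT26 is printed for each named gene that then lost its call.

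Of 9983 genes tested, 435 were rhythmic, which is 4.36%. At the threshold of the study, an unadjusted p under 0.01, the count was 1049 genes, or 10.5%. Without both CT26 libraries 241 genes (2.41%) were rhythmic, of which 164 were among the 435. All 435 genes then kept a peak within 3 h of the first estimate, 371 kept an unadjusted p under 0.01, and 435 kept one under 0.05. When 1 library was left out, the count lay between 138 (without CT34 replicate 1) and 330 (without CT22 replicate 2), and 114 of the 435 genes were called in each of the 12 such fits. With any single library left out, all 435 kept an unadjusted p under 0.01. The 435 had been chosen with an F test p of at most 0.00217 on these same libraries. Refits without CT26 or without 1 library are therefore no independent support. In edgeR on the counts 952 genes (9.54%) were called, including 388 of the 435.

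Rhythms in this muscle were mostly shallow. The amplitude of the 435 genes relative to their basal level had a median of 0.209 with quartiles of 0.144 and 0.302, and 81 genes (18.6%) had a fitted peak at least 2 times the trough. The highest of the 6 time means lay within 4 h of the fitted peak in 429 genes. Protein-coding genes made up 418 of the 435 (96.1%) and 8976 of all genes tested (89.9%).

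In the fit of all 12 libraries, peak times gathered around dawn and around dusk. Neither of these windows was the fullest without both CT26 libraries. In windows of 4 h from CT18, the fitted peaks numbered 56 (CT18 to CT22), 119 (CT22 to CT26), 32 (CT26 to CT30), 67 (CT30 to CT34), 108 (CT34 to CT38), and 53 (CT38 to CT42). The fullest windows, CT22 to CT26 with 27.4% and CT34 to CT38 with 24.8%, bracket the change from activity to rest and back in these nocturnal animals. Subjective day held 207 peaks, or 47.6% (95% exact binomial interval 42.8 to 52.4, for counting error only). Among the genes called by edgeR on counts the share in subjective day was 37.4%, with the same fullest windows (28.7% and 26.8%). Without both CT26 libraries the windows held 54, 54, 22, 61, 30, and 20 genes in the same order. The fullest was then CT30 to CT34 with 25.3% of the calls. CT18 to CT22 and CT22 to CT26 held 22.4% each, the latter after a fall from 119 to 54 genes. CT34 to CT38, which fell from 108 to 30 genes, held 12.4%. By window, the median relative amplitude was lowest from CT30 to CT34 (0.162) and highest from CT38 to CT42 (0.291). The called genes of these windows had median levels of 8.80 and 3.56 FPKM. Genes that peaked from CT34 to CT38 and from CT38 to CT42 were longer (medians of 6436.5 and 6289 bases) than those from CT22 to CT26 (4055 bases) and than all genes tested (4028 bases). The CT26 libraries lay low in long genes, as given above, and the part of those libraries in the lengths was not tested. With each library's trend on gene length removed, 553 genes were called. The windows then held 85, 161, 34, 89, 114, and 70 of them, in the same order.

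**Figure D1:**
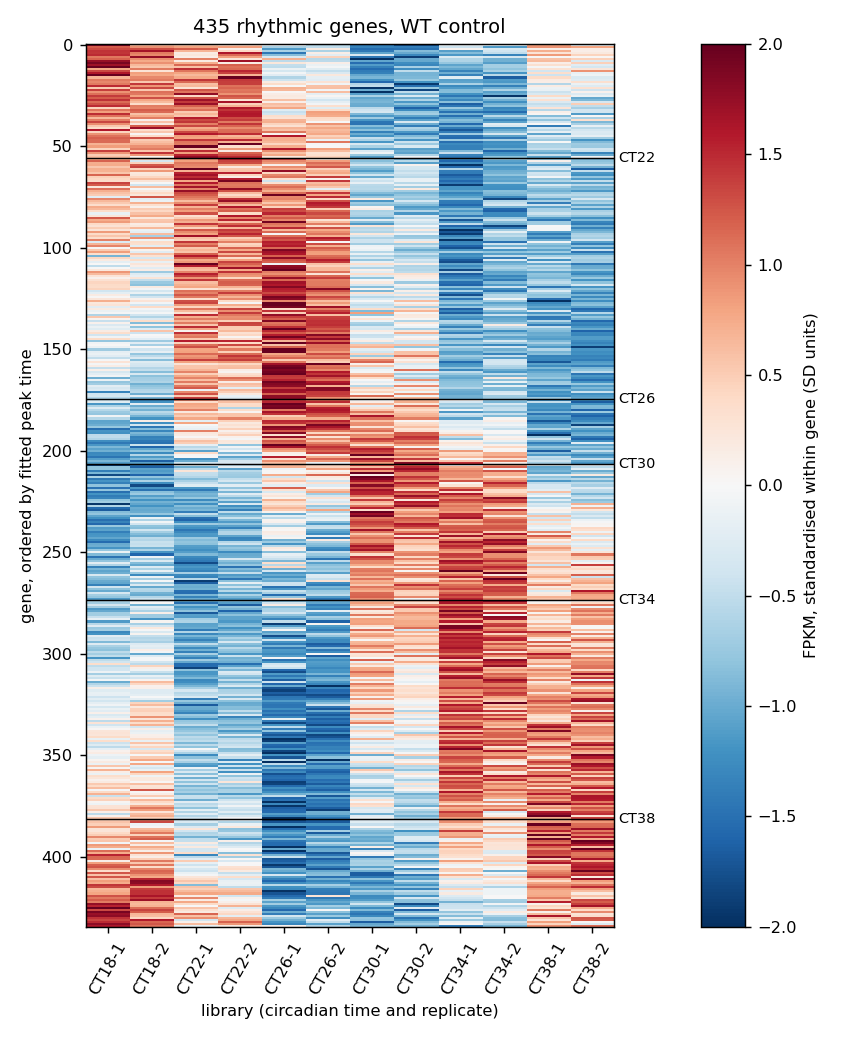
FPKM of the 435 rhythmic genes in the 12 WT control libraries, standardised within each gene (color, SD units), with genes in rows ordered by fitted peak time and the window limits CT22 to CT38 marked by lines. The band of high values moves from CT18 and CT22 at the top to CT34 and CT38 at the bottom, and the CT26 columns hold the most extreme values of many rows.

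Rhythms were frequent among clock genes. Of 21 genes in 5 lists of core clock components, 18 reached 1 FPKM, 13 were rhythmic, and 16 had an unadjusted p under 0.01. Without both CT26 libraries 11 were called, and 16 were called by edgeR on counts. Among the 13, all but *Hlf* were called in each of the 12 fits that left out 1 library. *Npas2*, *Arntl2*, and *Rorb* had means of 0.218, 0.177, and 0.0148 FPKM and were not tested.

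In the activating arm, *Arntl* (ENSMUSG00000055116, mm39 chr7:112806672-112913333, plus strand) was high in late subjective night. It measured 2.82 and 3.40 FPKM at CT18, 4.87 and 4.02 at CT22, 4.09 and 3.26 at CT26, 1.67 and 1.48 at CT30, 0.801 and 0.754 at CT34, and 1.51 and 1.15 at CT38. Both CT34 libraries lay below all others, and the 6 libraries from CT18 to CT26 all lay above the 6 later ones. The fit had a basal level of 2.49 FPKM, an amplitude of 1.88 ± 0.144 FPKM, and a peak at CT22.5 ± 0.292 h (adjusted p = 0.00153), and the highest time mean was 5.72 times the lowest. Its partner *Clock* had time means from 1.48 FPKM at CT34 to 2.07 FPKM at CT22 and a fitted amplitude of 0.263 ± 0.0912 FPKM that did not pass the test (adjusted p = 0.188).

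The called *Per* and *Cry* genes, repressors of the negative limb, peaked about 12 h away from *Arntl*, with 1 exception. *Per2*, a core repressor, measured 1.76 and 1.91 FPKM at CT18, 0.863 and 0.771 at CT22, 0.305 and 0.633 at CT26, 2.61 and 2.85 at CT30, 6.29 and 5.29 at CT34, and 3.46 and 5.62 at CT38. The 2 CT26 values were the lowest and the CT34 values were among the highest, a ratio of time means of 12.4, and the fitted amplitude of 2.65 ± 0.312 FPKM nearly equalled the basal level of 2.70 FPKM (peak CT35.4 ± 0.449 h, adjusted p = 0.00765). *Per3* peaked at CT33.9 ± 0.421 h with an amplitude of 2.44 ± 0.269 FPKM around 4.34 FPKM (adjusted p = 0.00596), and *Cry2* at CT34.6 ± 0.444 h with 2.17 ± 0.252 FPKM around 7.45 FPKM (adjusted p = 0.00738). *Cry1* was the exception. Its values were 7.37 and 6.49 FPKM at CT18, 6.45 and 7.12 at CT22, 5.50 and 5.22 at CT26, 4.03 and 4.497 at CT30, 4.45 and 4.22 at CT34, and 5.95 and 5.39 at CT38, so that it was highest at CT18 and CT22, when *Cry2* was low. Its fitted peak was CT19.6 ± 0.342 h, with an amplitude of 1.48 ± 0.133 FPKM around 5.56 FPKM (adjusted p = 0.00240).

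*Per1* was spiked rather than smooth. It reached 16.2 and 13.5 FPKM at CT34 and was at most 5.81 FPKM from CT18 to CT26, a ratio of the highest to the lowest time mean of 8.32, yet the sinusoid passed only the unadjusted threshold (n = 12 libraries, p = 0.00242, adjusted p = 0.0522). *Ciart*, a repressor of CLOCK and ARNTL, behaved alike. It lay between 0.215 and 0.756 FPKM in the 8 libraries outside CT30 and CT34, and between 3.17 and 4.85 FPKM in those 4. These ranges do not overlap, and the adjusted p was 0.0585. Both passed on the counts with edgeR, with adjusted p of 0.00741 for *Per1* and 0.000286 for *Ciart*. Of the E-box repressors *Bhlhe40* and *Bhlhe41*, the latter was called (peak CT30.1 ± 0.536 h, amplitude 3.22 ± 0.452 FPKM around 13.4 FPKM, adjusted p = 0.0176, and 0.0556 without CT26). *Bhlhe40* had time means from 14.7 FPKM at CT22 to 30.3 FPKM at CT30 and an adjusted p of 0.0528. It too passed on the counts with edgeR (adjusted p = 0.00970).

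The receptors of the stabilizing loop followed each other. *Nr1d1*, the repressor of *Arntl*, measured 10.1 and 10.7 FPKM at CT18, 25.1 and 25.9 at CT22, 56.1 and 65.1 at CT26, 70.8 and 62.0 at CT30, 30.8 and 35.8 at CT34, and 12.6 and 12.1 at CT38. The 4 libraries at CT26 and CT30 exceeded all others. Its fitted peak at CT28.5 ± 0.282 h came 6 h after that of *Arntl* and was the earliest of the day-phase clock genes (amplitude 30.4 ± 2.24 FPKM around 34.8 FPKM, adjusted p = 0.00130). *Nr1d2* peaked later, at CT33.6 ± 0.323 h, and less deeply, with an amplitude of 9.30 ± 0.786 FPKM around 21.9 FPKM (adjusted p = 0.00193). The activating receptor *Rora* was called with a peak at CT35.3 ± 0.529 h and an amplitude of 1.34 ± 0.185 FPKM around 5.23 FPKM (adjusted p = 0.0171). *Nr1d1* lies opposite to *Thra* and *Dbp* opposite to *Sphk2* with overlapping ends, and the strand setting of the counting is not given in the sources used here.

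All 4 genes of the D-box arm were rhythmic. *Dbp* measured 9.77 and 9.19 FPKM at CT18, 4.10 and 5.16 at CT22, 10.8 and 13.9 at CT26, 39.0 and 43.3 at CT30, 39.4 and 39.5 at CT34, and 18.2 and 21.5 at CT38. The 4 libraries of CT30 and CT34 formed a plateau far above the rest, and the CT22 libraries were the lowest. The fitted peak was CT32.6 ± 0.379 h, with an amplitude of 19.4 ± 1.93 FPKM around 21.2 FPKM (adjusted p = 0.00380). *Tef* (peak CT34.2 ± 0.383 h, relative amplitude 0.231) and *Hlf* (peak CT34.3 ± 0.590 h, relative amplitude 0.443) followed it. The adjusted p of *Hlf*, 0.0245, reached 0.0677 without CT34 replicate 1 and was 0.0540 without CT26. *Nfil3*, which represses at the same D-boxes, ran opposite, with 20.1 and 21.9 FPKM at CT18, 24.9 and 22.7 at CT22, 14.1 and 13.2 at CT26, 4.51 and 6.49 at CT30, 7.87 and 9.48 at CT34, and 16.9 and 16.5 at CT38. Its CT30 libraries were the lowest and its 4 libraries at CT18 and CT22 the highest (peak CT19.5 ± 0.313 h, amplitude 8.90 ± 0.728 FPKM around 14.9 FPKM, adjusted p = 0.00185).

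**Figure D2:**
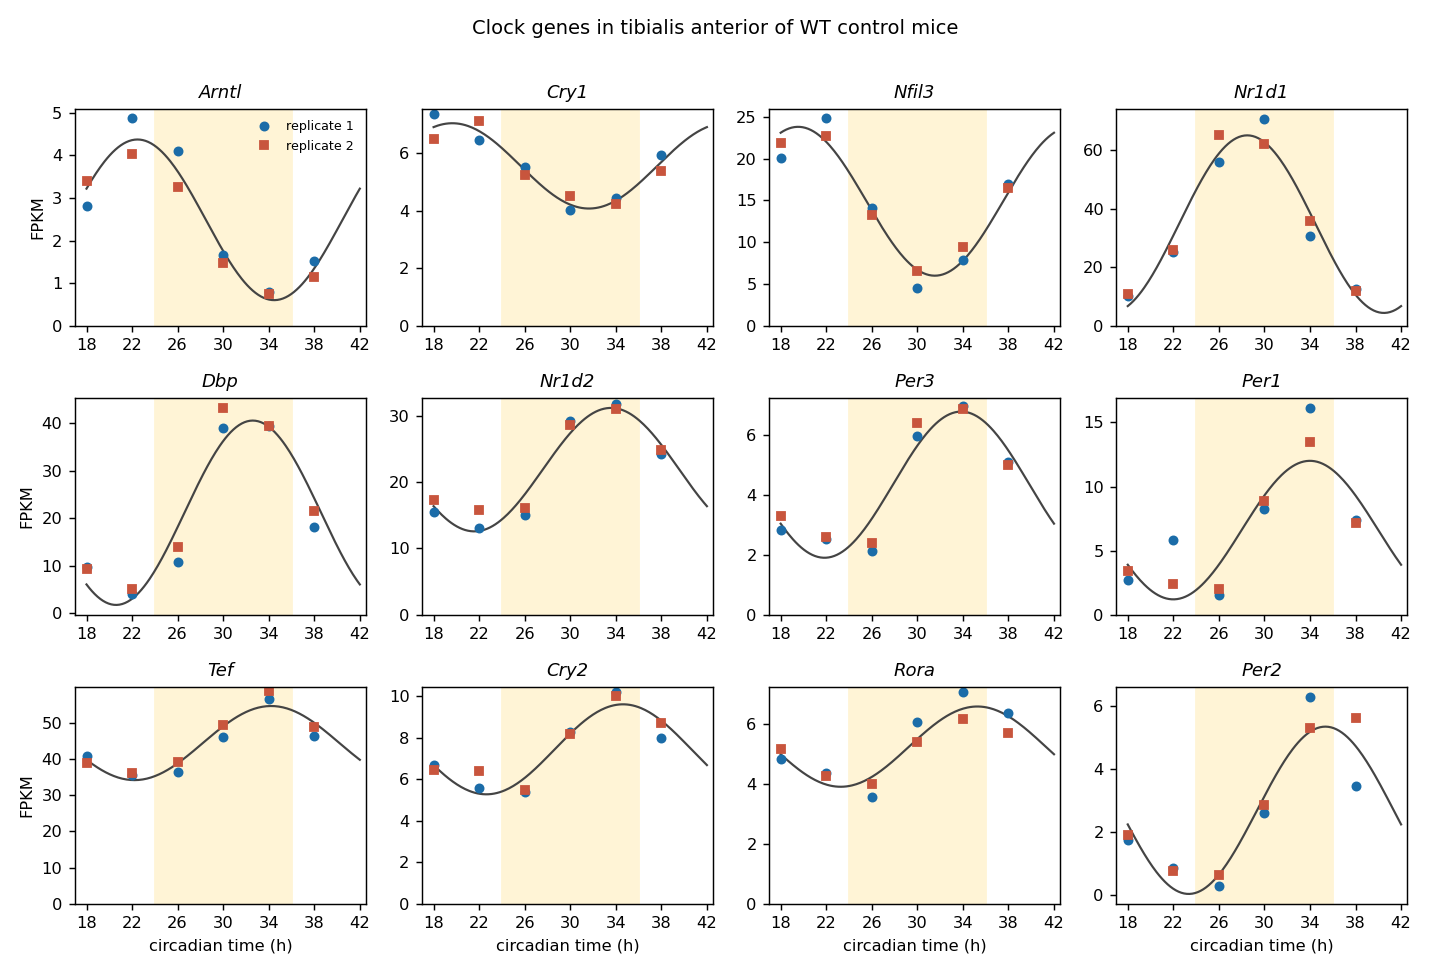
FPKM of 12 clock genes (vertical axes, each with its own scale) against circadian time (h), with points for the 2 replicates at each time, which are different mice at every time, and the fitted 24 h sinusoid as a line. The shaded span is subjective day. *Arntl*, *Cry1*, and *Nfil3* are high outside it, *Nr1d1* peaks near CT28.5, and the *Per* genes, *Cry2*, *Dbp*, and *Tef* peak from CT32.6 to CT35.4, with *Per1* rising above its curve at CT34.

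The binding sequences of these factors occur in several of the promoters concerned. RefSeq promoters of the build GRCm38.p6, from 250 bases before to 50 bases after a start, were searched on both strands for CACGTG (E-box), TTATGTAA or TTACGTAA (D-box), TAGGTCA or TGGGTCA (ROR element), and TGACGTCA (cyclic AMP response element). No one of these strings contains another. Of the 18 tested clock genes 15 had an entry. An E-box was found in 5 of these, a D-box in 1 (*Per3*), a ROR element in 2 (*Arntl* and *Nfil3*), and a cyclic AMP response element in 1 (*Hlf*). Stretches of at most 30 bases before the start are shown for the E-box of the repressors and of *Tef*, for the D-boxes of *Per3*, and for the ROR element of *Nfil3*, since these genes carried the opposed phases above. Letters run 5′ to 3′ on the strand of the gene, and capitals mark the matched string:
Per1, E-box centred 163 bases before the start, chr11:69098771-69098800, plus strand: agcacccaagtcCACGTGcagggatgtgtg
Cry1, E-box centred 57 bases before the start, chr10:85185097-85185126, minus strand: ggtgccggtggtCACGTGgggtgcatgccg
Ciart, E-box centred 41 bases before the start, chr3:95882255-95882284, minus strand: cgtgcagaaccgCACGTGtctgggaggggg
Ciart, E-box centred 113 bases before the start, chr3:95882327-95882356, minus strand: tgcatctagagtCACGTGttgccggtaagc
Bhlhe41, E-box centred 150 bases before the start, chr6:145865556-145865585, minus strand: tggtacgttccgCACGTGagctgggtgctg
Tef, E-box centred 124 bases before the start, chr15:81802534-81802563, plus strand: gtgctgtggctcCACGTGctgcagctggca
Per3, D-box centred 154 bases before the start, chr4:151044805-151044834, minus strand: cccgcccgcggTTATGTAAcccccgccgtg
Per3, D-box centred 201 bases before the start, chr4:151044852-151044881, minus strand: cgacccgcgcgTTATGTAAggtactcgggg
Nfil3, ROR element centred 8 bases before the start, chr13:52981040-52981062, minus strand: gcgctcggaacTGACCTActaac
The genes with a printed E-box did not share a phase, since *Cry1* peaked at CT19.6 and the others from CT30.1 to CT34.2. *Ciart* held 3 matches within the window.

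Over all 435 rhythmic genes, 352 (80.9%) had a promoter entry, and 14.2% of these held an E-box, 2.27% a D-box, 6.25% a ROR element, and 4.83% a cyclic AMP response element. Of all 32851 promoter entries of this length, which include genes not expressed here, 7.15%, 1.06%, 6.45%, and 1.79% held them. Those are shares of single entries, whereas a gene counts here if any of its entries holds the string. The shares of genes and of entries are thus unlike measures, and no excess can be read from them. Among all tested genes 73.9% had an entry. Counted by gene in the same way, 12.6% of these held an E-box, 0.854% a D-box, 6.43% a ROR element, and 3.81% a cyclic AMP response element. With entries missing for the other tested genes, a difference from the rhythmic genes was not tested. The E-box share by window of peak time ran from 8.70% (CT18 to CT22, 46 genes) to 24% (CT26 to CT30, 25 genes). A match is a string in a window and not evidence of a bound site.

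Outside the clock, the closest fits to a sinusoid belonged to transporters, enzymes, and regulators alike. The 12 genes with the lowest p were *Slc41a3*, *Fam20c*, *Klhl30*, *Coq10b*, *Slc25a36*, *Mylk4*, *Rara*, *Asb2*, *Slc38a2*, *Mn1*, *Pnpla3*, and *Ltbp3*. All 12 were called with each library left out and without both CT26 libraries. *Slc41a3*, a magnesium transporter of mitochondria, had the lowest p of all genes tested (n = 12 libraries, p = 3.02e-09, adjusted p = 3.02e-05). It measured 31.8 and 32.4 FPKM at CT18, 40.5 and 39.9 at CT22, 45.3 and 44.4 at CT26, 40.3 and 40.6 at CT30, 34.1 and 33.7 at CT34, and 27.5 and 27.5 at CT38. Mice of the same time differed by less than 1 FPKM, and the values climbed to CT26 and sank to CT38 without a step back (amplitude 8.24 ± 0.313 FPKM, peak CT26.3 ± 0.145 h). Its promoter holds an E-box:
Slc41a3, E-box centred 210 bases before the start, chr6:90619021-90619050, plus strand: agcagcccatggCACGTGtgcagaggacac

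Peaks in late subjective night and around dawn were common among the 12. *Fam20c*, a kinase of secreted proteins, measured 2.81 and 3.002 FPKM at CT18, 4.11 and 4.38 at CT22, 4.31 and 4.28 at CT26, 3.61 and 3.64 at CT30, 2.48 and 2.27 at CT34, and 2.12 and 2.11 at CT38. The 4 libraries at CT22 and CT26 were the highest, and the ratio of time means was 2.03 (peak CT24.9 ± 0.171 h, adjusted p = 6.42e-05). *Klhl30*, of the Kelch-like family, peaked at CT24.4 ± 0.209 h with an amplitude of 11.3 ± 0.619 FPKM around 38.6 FPKM, and *Rara*, the retinoic acid receptor alpha, at CT23.7 ± 0.276 h with 1.204 ± 0.0871 around 4.37 FPKM. *Slc25a36*, a nucleotide carrier of mitochondria, peaked at CT21.9 ± 0.260 h, and *Ltbp3*, which binds latent TGF-beta, at CT20.0 ± 0.320 h with the smallest relative amplitude of the 12, 0.150. *Asb2*, the substrate receptor of a ubiquitin ligase, was among the abundant genes. It measured 360.2 and 336 FPKM at CT18, 388 and 411 at CT22, 371 and 394 at CT26, 237 and 199.7 at CT30, 185 and 194 at CT34, and 241 and 229 at CT38. Its 6 libraries from CT18 to CT26 all lay above the later 6, as those of *Arntl* did (peak CT22.2 ± 0.297 h, amplitude 117 ± 9.07 FPKM, adjusted p = 0.00153).

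*Mylk4*, a kinase of the myosin light chain kinase family, peaked near the start of subjective night. Its values were 322 and 310.5 FPKM at CT18, 196 and 236 at CT22, 136 and 159 at CT26, 239 and 252 at CT30, 413 and 359 at CT34, and 401 and 405 at CT38. The CT26 values were the lowest, and the CT34 and CT38 values were the highest, with a ratio of the highest to the lowest time mean of 2.74 (peak CT37.1 ± 0.263 h, amplitude 129 ± 8.84 FPKM, adjusted p = 0.000929). *Coq10b*, a coenzyme Q-binding protein of mitochondria, peaked with *Dbp*, at CT32.6 ± 0.229 h, with an amplitude of 1.22 ± 0.0733 FPKM around 2.20 FPKM (adjusted p = 0.000422). *Mn1*, a transcriptional coregulator, peaked at CT36.4 ± 0.314 h. *Pnpla3*, a lipid hydrolase of lipid droplets, was 5.22 times higher at CT22 than at CT34, the deepest rhythm among the 12 (relative amplitude 0.785, peak CT20.4 ± 0.314 h, adjusted p = 0.00185).

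By depth of the rhythm the order was another. In each window the 3 genes with the largest amplitude relative to the basal level were *Pnpla3*, *Nfil3*, and *Slc16a9* (CT18 to CT22), *Arntl*, *Foxs1*, and *Cldn5* (CT22 to CT26), *Nr1d1*, *Wnt5b*, and *Fscn1* (CT26 to CT30), *Dbp*, *Per3*, and *Coq10b* (CT30 to CT34), *Per2*, *mt-Nd4l*, and *Cep85l* (CT34 to CT38), and *Prima1*, *Gm14319*, and *Rnase13* (CT38 to CT42). *Slc16a9*, a monocarboxylate transporter, fell from 3.14 FPKM at CT22 to 0.997 FPKM at CT34 (peak CT20.6 ± 0.339 h, adjusted p = 0.00235). *Prima1*, which anchors acetylcholinesterase to the membrane, measured 9.24 and 10.7 FPKM at CT18, 6.17 and 5.55 at CT22, 3.58 and 2.19 at CT26, 2.32 and 3.20 at CT30, 4.26 and 3.63 at CT34, and 7.34 and 9.65 at CT38. The CT18 and CT38 libraries lay above all others, a ratio of 3.62 (peak CT40.9 ± 0.428 h, adjusted p = 0.00648). *Wnt5b*, a WNT ligand, peaked at CT29.9 ± 0.476 h at a low level of 1.31 FPKM (adjusted p = 0.0110). *Fscn1*, an actin-bundling protein, and *Foxs1*, a forkhead factor, peaked at CT26.2 and CT23.3, with adjusted p of 0.0176 (up to 0.0535 without CT26 replicate 2, 0.104 without CT26) and 0.0324 (up to 0.0900 without CT34 replicate 1, 0.0418 without CT26). *Gm14319*, *Rnase13*, and *Cep85l* had relative amplitudes of 0.603, 0.564, and 0.605, and their adjusted p without CT26 were 0.0961, 0.0721, and 0.0819. They were called in 8, 9, and 11 of the 12 fits that left out 1 library. *Cep85l* spans *Pln* and 4 other annotated genes, and *mt-Nd4l* shares bases with *mt-Nd4* on the same strand, so reads of either could be split with a neighbour. The FPKM values of *mt-Nd4l*, a gene of 297 bases, were 862 and 167 in the mice of CT18. Its call (adjusted p = 0.0234) held in 8 of the 12 fits that left out 1 library and was lost on the log2(FPKM + 1) scale (adjusted p = 0.115).

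**Figure D3:**
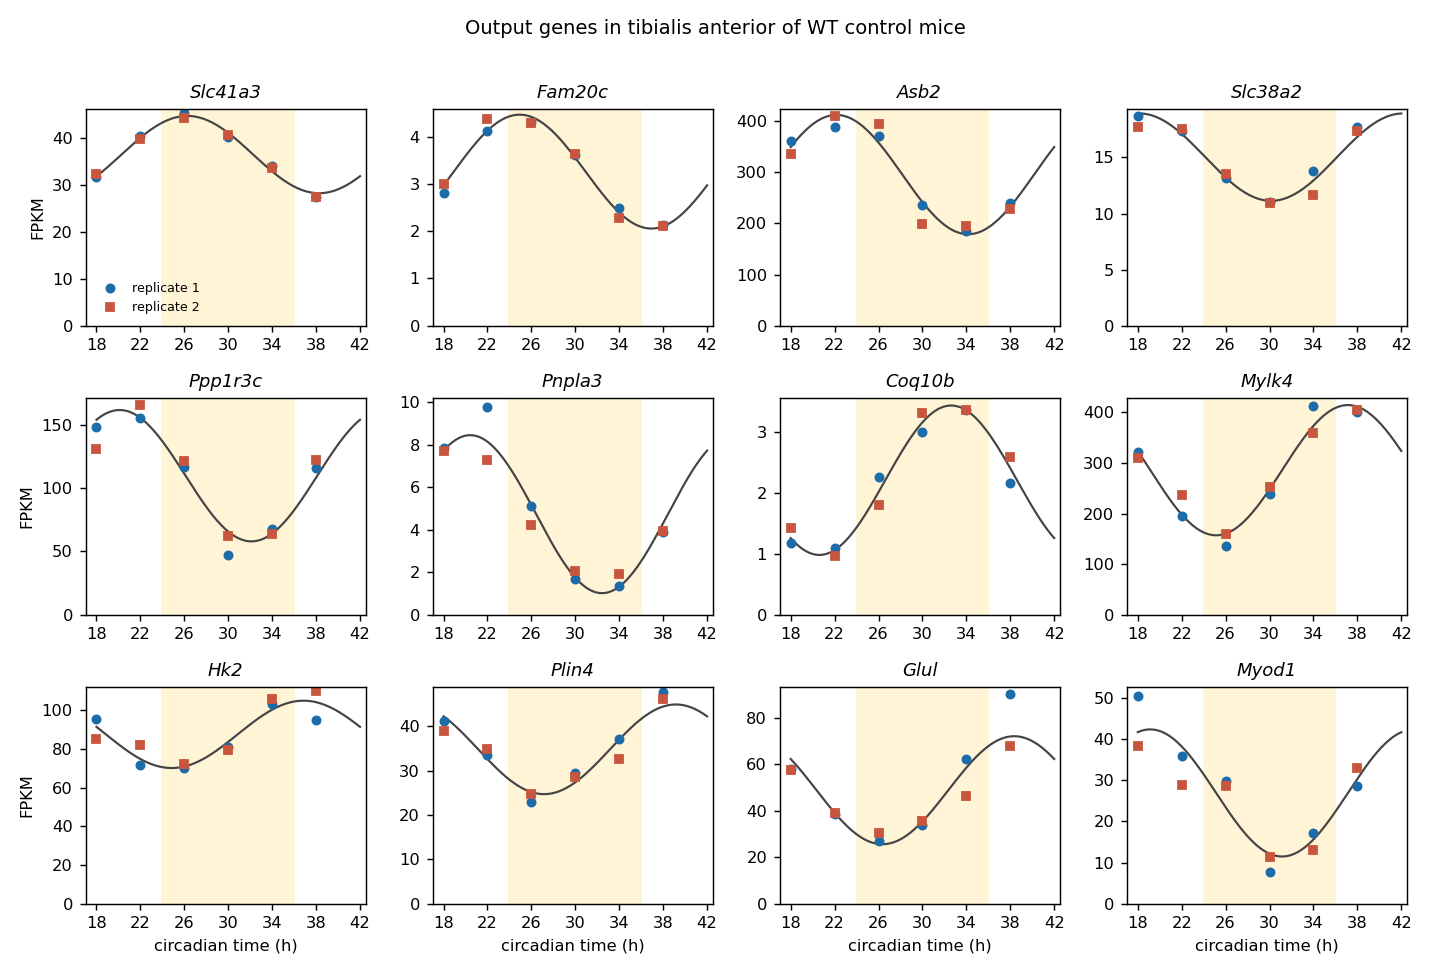
FPKM of 12 rhythmic genes outside the clock lists (vertical axes, each with its own scale) against circadian time (h), with points for the 2 replicates at each time and the fitted sinusoid as a line; the shaded span is subjective day. *Slc41a3* and *Fam20c* peak near CT25 to CT26, *Coq10b* at CT32.6, *Mylk4*, *Hk2*, *Glul*, and *Plin4* from CT36.9 to CT39.2, and the others between CT18.1 and CT22.2.

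The lists that follow were compiled with earlier results of these data known, and their counts are to be read beside the 4.36% of all genes. At an unadjusted p under 0.05 the count over all genes was 2732 of 9983, and under 0.01 it was 10.5%. Calls by edgeR are to be read beside 9.54%. Among 19 tested genes known as clock outputs in many tissues, 6 were rhythmic and 10 had an unadjusted p under 0.01 (3 called without CT26). They were *Coq10b*, *Pnpla3*, *Klf9*, *Tsc22d3*, *Tspan4* (peak CT33.7, adjusted p = 0.0320, 0.0864 without CT26), and *Nampt*, the rate-limiting enzyme of NAD salvage (peak CT33.9, relative amplitude 0.166, adjusted p = 0.0444, 0.118 without CT26). *Usp2*, a deubiquitinase that acts on clock proteins, was the one called of 9 genes of clock protein turnover. It rose from 26.6 FPKM at CT26 to 58.4 FPKM at CT34 (peak CT35.0 ± 0.377 h, adjusted p = 0.00374).

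Genes that respond to glucocorticoids, the adrenal hormones that rise before the active phase, gave 6 called of 23 tested (26.1%), all with peaks around the start of subjective night. The fitted times were CT35.6 for *Klf9*, CT38.4 for *Glul*, CT38.4 for *Foxo1*, CT38.7 for *Cebpb*, CT39.8 for *Tsc22d3*, and CT40.0 for *Zbtb16*. *Glul*, glutamine synthetase, measured 58.0 and 57.5 FPKM at CT18, 38.6 and 38.9 at CT22, 27.1 and 30.3 at CT26, 33.9 and 35.4 at CT30, 62.3 and 46.2 at CT34, and 90.0 and 67.6 at CT38. The CT38 libraries were the highest and the CT26 libraries the lowest, with 90.0 and 67.6 FPKM showing the widest gap between mice of 1 time. The amplitude was 23.2 ± 3.27 FPKM around 48.8 FPKM (adjusted p = 0.0176, and 0.0729 without CT26). *Zbtb16*, a transcription factor, had a ratio of time means of 2.43 (adjusted p = 0.0162, 0.0722 without CT26), and *Cebpb*, a bZIP factor, one of 2.52 (adjusted p = 0.0278). *Tsc22d3*, which encodes the anti-inflammatory protein GILZ, had a relative amplitude of only 0.156 (adjusted p = 0.0305). *Fkbp5*, a chaperone cofactor of the glucocorticoid receptor, had a fitted time of CT18.4 and an adjusted p of 0.0624. Without both CT26 libraries 2 of the 23 were called, with an adjusted p of 0.0576 for *Klf9* and 0.142 for *Foxo1*. With 1 library left out the adjusted p of *Klf9*, *Foxo1*, *Cebpb*, and *Tsc22d3* reached 0.0836 without CT34 replicate 1, 0.0714 without CT26 replicate 2, 0.0677 without CT34 replicate 1, and 0.0693 without CT38 replicate 2.

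Of 27 tested genes of glucose uptake and glycolysis 2 were called (7.41%, and none without CT26). *Hk2*, the muscle hexokinase that commits glucose, measured 95.2 and 84.9 FPKM at CT18, 71.4 and 81.7 at CT22, 70.2 and 72.4 at CT26, 80.7 and 79.5 at CT30, 103 and 106 at CT34, and 94.6 and 109.9 at CT38. It was lowest at CT26 and highest at CT34 and CT38, where the mice ranged from 94.6 to 109.9 FPKM (peak CT36.9 ± 0.524 h, amplitude 17.4 ± 2.38 FPKM, adjusted p = 0.0171, 0.0819 without CT26). *Tbc1d1*, which restrains the traffic of glucose transporters to the surface, peaked at CT41.0 ± 0.552 h with an amplitude of 9.44 ± 1.36 FPKM around 25.4 FPKM (adjusted p = 0.0188, up to 0.0561 without CT18 replicate 1, 0.0706 without CT26). The other 25, which include the enzymes of the glycolytic chain, were not called. Of all 27, 11 had an unadjusted p under 0.05 and 4 one under 0.01, and edgeR on counts called 5. Of 12 genes of pyruvate dehydrogenase and its regulators, *Pdp1*, the phosphatase that activates the complex, was called (peak CT34.0 ± 0.565 h, relative amplitude 0.252, adjusted p = 0.0213, up to 0.0727 without CT34 replicate 1, 0.0540 without CT26).

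A pair of glycogen-targeting subunits of protein phosphatase 1 had distant peak times. *Ppp1r3c* (PTG), which promotes glycogen synthesis, measured 148 and 131 FPKM at CT18, 155 and 165 at CT22, 116 and 122 at CT26, 47.2 and 62.2 at CT30, 67.4 and 64.1 at CT34, and 116 and 122 at CT38. The 4 libraries of CT30 and CT34 lay below 116 FPKM, the lowest of the other 8, a ratio of time means of 2.93. Its peak was CT20.1 ± 0.375 h (amplitude 51.8 ± 5.09 FPKM, adjusted p = 0.00368), and it was called in each leave-one-out fit and without CT26. *Ppp1r3a* peaked at CT35.5 ± 0.658 h with a relative amplitude of 0.237 (adjusted p = 0.0350, up to 0.0923 without CT34 replicate 1, 0.0947 without CT26). These were the 2 called of 20 glycogen genes tested. The promoter of *Ppp1r3c* holds an E-box, shown because its rhythm was the deepest among the called carbohydrate genes:
Ppp1r3c, E-box centred 101 bases before the start, chr19:36736691-36736720, minus strand: gagggaccggttCACGTGatctggctttga

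Lipid genes gave 2 called of 37 for fatty acid uptake and oxidation (none without CT26) and 2 of 32 for lipid synthesis and storage (2 without CT26). *Ppara*, the nuclear receptor that drives fatty acid oxidation, measured 4.14 and 3.99 FPKM at CT18, 2.39 and 2.82 at CT22, 0.733 and 1.67 at CT26, 2.14 and 2.24 at CT30, 2.72 and 3.30 at CT34, and 3.35 and 4.49 at CT38. It was low at CT26 and high at CT18 and CT38 (peak CT39.2 ± 0.553 h, ratio of time means 3.39, adjusted p = 0.0189, up to 0.0528 without CT38 replicate 2, 0.0716 without CT26). *Crat*, carnitine acetyltransferase, had 1 of the shallowest called rhythms, with a relative amplitude of 0.0839 and a peak at CT22.7 ± 0.605 h (adjusted p = 0.0270, up to 0.0834 without CT34 replicate 1, 0.0685 without CT26), and edgeR on counts did not call it (adjusted p = 0.0715). In storage, *Plin4*, a coat protein of lipid droplets, peaked at CT39.2 ± 0.401 h, whereas *Pnpla3* peaked at CT20.4. Its values were 41.2 and 38.9 FPKM at CT18, 33.5 and 34.8 at CT22, 22.9 and 24.7 at CT26, 29.4 and 28.6 at CT30, 37.1 and 32.6 at CT34, and 47.6 and 46.1 at CT38. Both CT38 libraries lay above all others (amplitude 10.1 ± 1.06 FPKM, adjusted p = 0.00445).

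None of 83 genes in the list of oxidative phosphorylation and none of 17 enzymes of the tricarboxylic acid cycle was called. At an unadjusted p under 0.05 the counts were 19 and 3, against 2732 of all 9983 genes tested, and edgeR on counts called 4 and 1. The lowest p belonged to *Cyc1* (time means from 226 FPKM at CT34 to 322 FPKM at CT26, adjusted p = 0.105) and to *Mdh2* (232 to 314 FPKM at the same times, adjusted p = 0.0640). Of 13 mitochondrially encoded genes *mt-Nd4l*, a subunit of respiratory complex I, was called, with the limits given above.

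In protein turnover the counts called were 1 of 17 atrophy ubiquitin ligases (*Asb2*), 0 of 35 autophagy and mitophagy genes (lowest adjusted p 0.0904, *Bnip3l*), 1 of 36 proteasome subunits (*Psma3*, peak CT33.4, adjusted p = 0.0187, up to 0.0693 without CT34 replicate 1, 0.0515 without CT26), and 0 of 77 cytosolic ribosomal proteins (lowest 0.0792, *Rpl23*). Without CT26 the counts were 1, 0, 0, and 0. By edgeR on counts they were 2, 0, 1, and 6. At an unadjusted p under 0.05 the uncalled lists held 7 (autophagy and mitophagy) and 25 genes (ribosomal proteins), against 2732 of all 9983 genes tested. *Hsf1*, the heat shock transcription factor, was the 1 called of 28 heat shock genes, with a relative amplitude of 0.131 and a peak at CT24.2 ± 0.713 h, and its adjusted p of 0.0444 (up to 0.106 without CT34 replicate 1) was 0.153 without CT26. *Dnajb9*, a cochaperone of the endoplasmic reticulum, was the 1 of 18 in its list and firmer, with a peak at CT35.0 ± 0.463 h and an adjusted p of 0.00948 (0.0288 without CT26). None of 3 cold-inducible RNA-binding genes was called by the sinusoid or by edgeR (1 at an unadjusted p under 0.05, lowest adjusted p 0.115, *Srsf5*).

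Of 17 collagens 3 were called (17.6%, and 4 without CT26), all with peaks near dawn. *Col4a1* and *Col4a2*, the chains of the main basement membrane collagen, have starts that overlap on opposite strands of chromosome 8. *Col4a1* measured 19.9 and 16.4 FPKM at CT18, 25.7 and 26.8 at CT22, 23.1 and 25.7 at CT26, 22.9 and 23.1 at CT30, 13.8 and 13.1 at CT34, and 14.96 and 13.5 at CT38, and *Col4a2* measured 19.1 and 15.6 FPKM at CT18, 26.0 and 25.9 at CT22, 24.1 and 27.0 at CT26, 22.4 and 22.9 at CT30, 14.0 and 12.5 at CT34, and 15.2 and 13.1 at CT38. In both genes all 6 libraries from CT22 to CT30 exceeded the other 6 (peaks CT24.7 ± 0.448 h and CT24.8 ± 0.393 h, adjusted p = 0.00759 and 0.00409). *Col5a3* peaked at CT23.8 ± 0.339 h with a relative amplitude of 0.442 (adjusted p = 0.00235).

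Of 10 endothelial markers 4 were called, and none without CT26. *Kdr* (adjusted p = 0.0439, up to 0.101 without CT34 replicate 1, 0.0657 without CT26), *Tie1* (adjusted p = 0.0399, up to 0.101 without CT34 replicate 1, 0.135 without CT26), and *Cldn5* peaked at CT23.1, CT23.8, and CT23.9, and *Flt1*, a VEGF receptor like *Kdr*, at CT37.0. *Cldn5*, the tight junction protein, had time means from 5.53 FPKM at CT34 to 24.2 FPKM at CT26 (adjusted p = 0.0463, up to 0.115 without CT34 replicate 1, 0.0685 without CT26). *Flt1* was called in each leave-one-out fit (adjusted p = 0.0171, 0.0882 without CT26). The 10 markers summed to 77.4 to 113 FPKM, lowest in a CT34 and highest in a CT26 library. In bulk tissue, fewer cells of a type and less RNA per cell cannot be told apart. The summed markers of other cell types also differed between libraries, from 13.3 to 48.6 FPKM for 10 macrophage genes, 32.8 to 90.2 for 10 fibroblast genes, and 81.7 to 330.2 for 5 erythroid genes, and each was lowest in a CT34 library. In these 3 lists 6, 7, and 5 genes were tested, and none was called (the lowest adjusted p were 0.0915 for *C1qa*, 0.123 for *Lum*, and 0.300 for *Hba-a2*). Among those tested, 4, 1, and 0 had an unadjusted p under 0.05, and edgeR on counts called 4, 1, and 0. The part of these cell types in the rhythms of collagen and vessel genes was not tested. Adipocyte, smooth muscle and pericyte, and Schwann cell markers gave no call by either test (0, 3, and 0 with an unadjusted p under 0.05), and neutrophil, liver, and skin markers did not reach 1 FPKM.

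Regulators of the muscle cell itself were represented by *Myod1* and *Smad7*, the 2 called of 16. *Myod1*, the myogenic transcription factor and a known clock target, measured 50.6 and 38.4 FPKM at CT18, 36.004 and 29.0 at CT22, 29.8 and 28.5 at CT26, 7.84 and 11.4 at CT30, 17.3 and 13.1 at CT34, and 28.5 and 32.9 at CT38. The 2 CT30 values were the lowest and the CT18 values the highest, a ratio of time means of 4.63 (peak CT19.1 ± 0.567 h, amplitude 15.4 ± 2.29 FPKM around 26.9 FPKM, adjusted p = 0.0215, up to 0.0575 without CT34 replicate 1, 0.0268 without CT26). *Smad7*, an inhibitor of TGF-beta signaling, peaked at CT41.9 ± 0.710 h (adjusted p = 0.0439, up to 0.104 without CT18 replicate 1, 0.0673 without CT26). Among 6 satellite cell markers 2 were tested and 1 was called, and none without CT26, whereas edgeR on counts called 2. The called marker, *Cdh15* (M-cadherin), peaked at CT25.8 ± 0.595 h (adjusted p = 0.0257, up to 0.0700 without CT26 replicate 2, 0.135 without CT26). No gene of 14 for fast-fiber contraction, 10 for slow-fiber contraction, or 23 for sarcomere structure was called. An unadjusted p under 0.05 was found for 1, 1, and 6 of them, and edgeR on counts called 0, 2, and 3. The lowest adjusted p in these were 0.0822 for *Tnnc2*, which lies opposite to *Ube2c* and is listed at a mean of only 1.06 FPKM, 0.112 for *Myl2*, and 0.0610 for *Tpm2*. *Ckm*, muscle creatine kinase, was called among 8 fiber markers with a relative amplitude of 0.114 and a peak at CT23.7 ± 0.577 h (adjusted p = 0.0227, up to 0.0727 without CT34 replicate 1). *Asph*, which encodes proteins of the calcium store, was the 1 called of 20 genes of excitation and calcium handling (peak CT27.6 ± 0.533 h, relative amplitude 0.125, adjusted p = 0.0172).

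Amino acid transport and synthesis gave 4 called of 24 (16.7%, and 2 without CT26). *Slc38a2*, a transporter of small neutral amino acids, measured 18.7 and 17.7 FPKM at CT18, 17.4 and 17.498 at CT22, 13.1 and 13.5 at CT26, 11.03 and 10.9 at CT30, 13.8 and 11.7 at CT34, and 17.7 and 17.3 at CT38. It was lowest at CT30 and was at 17.3 FPKM or more in all 6 libraries of CT18, CT22, and CT38 (peak CT18.1 ± 0.299 h, amplitude 3.89 ± 0.304 FPKM, adjusted p = 0.00153). *Slc7a8*, which carries larger neutral amino acids, peaked at CT39.7 ± 0.428 h (relative amplitude 0.347, adjusted p = 0.00648), and the other 2 were *Glul* and *Sms*, spermine synthase (peak CT33.0, adjusted p = 0.0326, up to 0.0914 without CT34 replicate 1, 0.0777 without CT26). Of 30 genes of insulin, IGF1, and mTOR signaling 2 were called, *Foxo1* and *Pik3r1*. *Pik3r1*, the regulatory subunit of phosphatidylinositol 3-kinase, was 2.37 times higher at CT38 than at CT26 (peak CT40.3 ± 0.517 h, adjusted p = 0.0164, 0.0711 without CT26). Of 18 immediate early genes *Klf6* (peak CT36.5, adjusted p = 0.00956) and *Junb* (peak CT27.8, adjusted p = 0.0303, up to 0.0693 without CT26 replicate 2, 0.0812 without CT26) were called. Of 17 hypoxia-inducible genes *Adm*, adrenomedullin, was called (peak CT23.4, adjusted p = 0.0382, up to 0.101 without CT34 replicate 1, 0.0707 without CT26), and of 17 interferon-stimulated genes none (lowest adjusted p 0.103, *Gbp7*, with 3 at an unadjusted p under 0.05 and 2 called by edgeR).

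**Figure D4:**
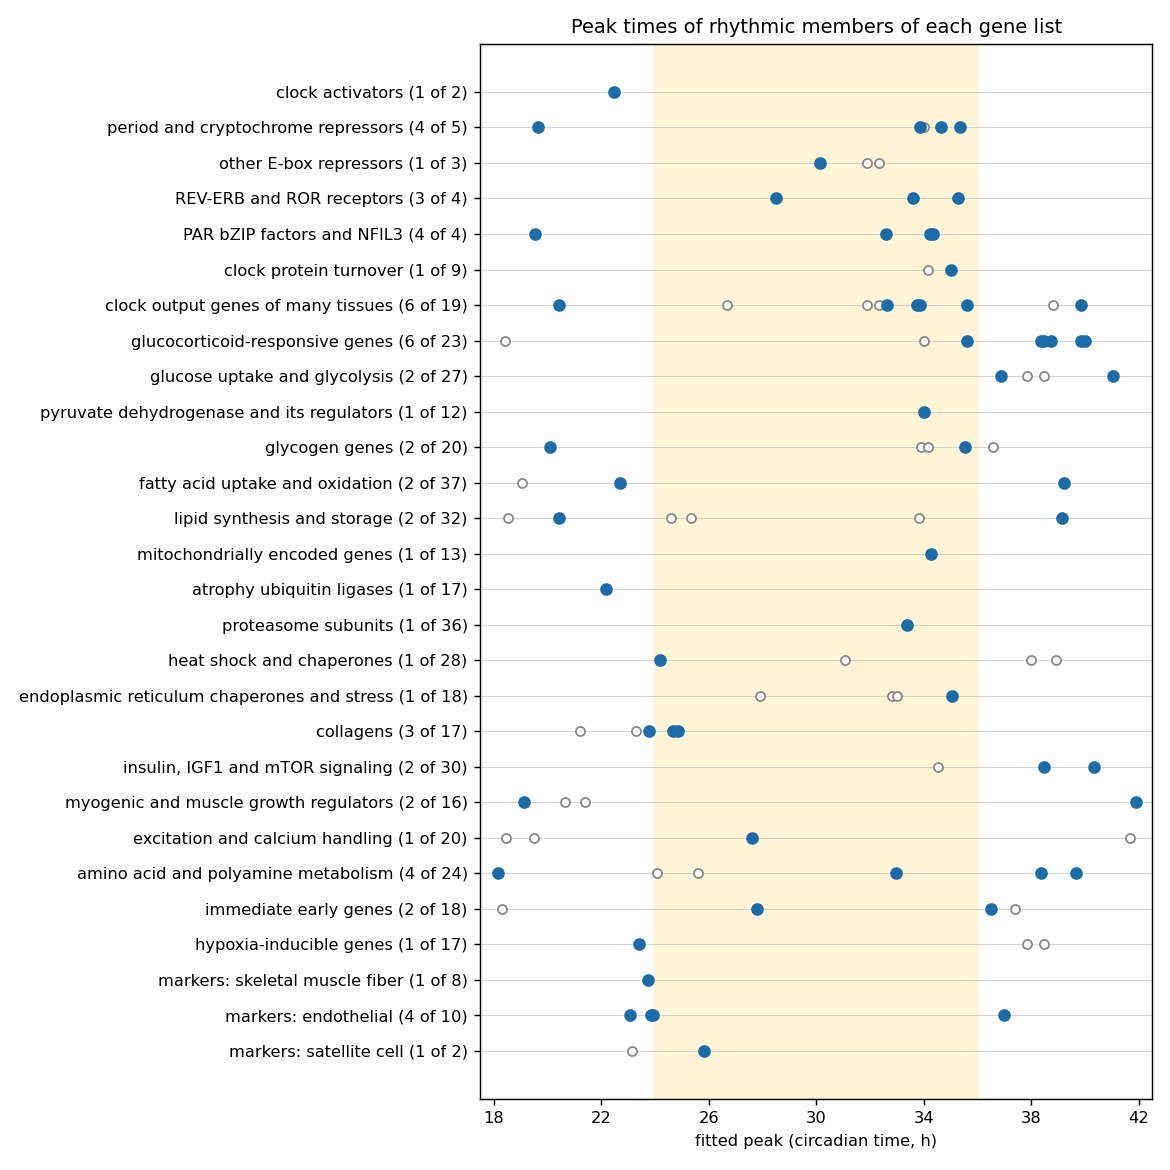
Fitted peak time (circadian time, h) of members of each gene list with at least 1 rhythmic gene; filled points have an adjusted p under 0.05, open points an unadjusted p under 0.01 only, and the numbers give rhythmic of tested members. The shaded span is subjective day. The filled points of glucocorticoid-responsive genes lie from CT35.6 to CT40.0, those of collagens near CT24, and the *Per* genes, *Cry2*, *Dbp*, *Tef*, and *Hlf* from CT32.6 to CT35.4.

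Other mice of the series show how far these rhythms recurred, in libraries that took no part in the calls. The gene deleted in the muscle fibers of the FoxP1 SkmKO groups, *Foxp1*, a forkhead transcription factor, did not separate the labels at the level of the whole gene. It measured 0.430 to 0.971 FPKM (median 0.615) in WT control, 0.430 to 0.642 (median 0.585) in FoxP1 SkmKO control, 0.454 to 0.757 (median 0.636) in WT KPC, and 0.419 to 0.653 FPKM (median 0.531) in FoxP1 SkmKO KPC libraries. The ranges overlap, other cells of the muscle keep the gene, and which exons were removed is not given in the sources used here, so FoxP1 SkmKO stands below for libraries labelled so. Among the 435 genes, 225 (51.7%) in FoxP1 SkmKO control mice had an unadjusted p under 0.01, against 9.22% of all genes tested, and 387 (89.0%) had a peak within 3 h, against 51.7% of all genes. In WT KPC mice the values were 194 genes (44.6%, against 8.85%) and 374 genes (86.0%, against 45.4%). In FoxP1 SkmKO KPC mice they were 144 genes (33.1%, against 5.63%) and 359 genes (82.5%, against 43.9%). Of the genes that peaked from CT22 to CT26, 54.6% had an unadjusted p under 0.01 in FoxP1 SkmKO control and 48.7% in WT KPC mice.

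A core of 80 genes (18.4%) met both conditions in all 3 other groups, against 126 (1.26%) of all genes tested. Of the 18 clock genes tested, whether called or not, 14 met both conditions in all 3 other groups. Among these 14, *Clock*, *Per1*, and *Ciart* were not called in WT control mice and so lie outside the 80. *Clock*, which missed the threshold in WT control mice, had (n = 12 libraries a group) an unadjusted p of 0.000545 in FoxP1 SkmKO control and 0.00581 in WT KPC mice, and a difference in its rhythm from WT control was not detected (adjusted p = 0.803 and 0.704). Outside the clock, *Fam20c*, *Klhl30*, *Coq10b*, *Slc25a36*, *Mylk4*, *Asb2*, *Slc38a2*, *Pnpla3*, *Slc16a9*, *Cep85l*, *Usp2*, *Hk2*, *Tbc1d1*, *Pik3r1*, *Slc7a8*, *Dnajb9*, *Col4a2*, *Col5a3*, and *Myod1* were among the 80. *Pnpla3*, for example, peaked at CT19.3 ± 0.288 h in FoxP1 SkmKO control mice and at CT19.4 ± 0.577 h in WT KPC mice, and *Mylk4* at CT36.8 ± 0.446 h and CT36.3 ± 0.470 h. Of the 12 genes with the lowest p outside the clock, *Slc41a3*, *Rara*, *Mn1*, and *Ltbp3* were not among the 80. *Slc41a3*, *Rara*, and *Mn1* met both conditions in FoxP1 SkmKO control and WT KPC mice. In FoxP1 SkmKO KPC mice their unadjusted p in the sinusoid F test were 0.0116, 0.0133, and 0.0315. *Ltbp3* missed the unadjusted threshold in each of the other groups. *Ppp1r3c*, *Glul*, and *Ppara* were not among the 80 either. In WT KPC mice their unadjusted p (n = 12 libraries) were 0.0125, 0.0731, and 0.404. The adjusted p for a difference in rhythm from WT control were 0.670, 0.862, and 0.653.

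A difference in rhythm was tested directly by the 2 sinusoid terms by group, on 18 residual degrees of freedom, with a basal level for each group. Against FoxP1 SkmKO control mice 0 of 9983 genes (0%) passed an adjusted p under 0.05, 559 (5.6%) had an unadjusted p under 0.05, and edgeR on counts gave 0 and 562. Against WT KPC mice 0 passed (0%), 744 (7.45%) had an unadjusted p under 0.05, and edgeR gave 0 and 762. Both comparisons share the WT control libraries. The lowest unadjusted p (n = 24 libraries) among the genes named here were 0.000343 (*Car3*, carbonic anhydrase 3) and 0.000378 (*Klhl30*) in the first and 4.18e-05 (*Ltbp3*, adjusted p = 0.209) in the second. For *Klhl30* the peak was CT24.4 ± 0.209 h in WT control and CT22.8 ± 0.275 h in FoxP1 SkmKO control mice. With 2 mice at each time, a p that misses the threshold does not show that the groups share a rhythm.

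**Figure D5:**
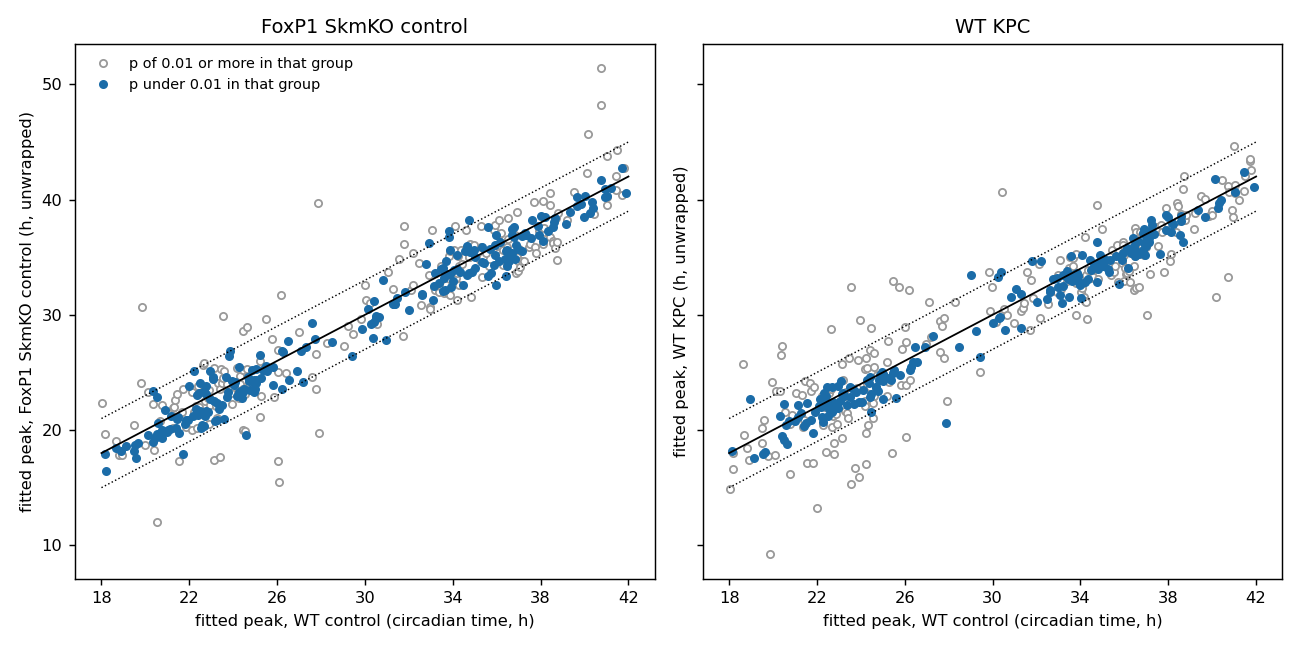
Fitted peak time of the 435 rhythmic genes in WT control mice (horizontal, circadian time in h) against their fitted peak in FoxP1 SkmKO control (left) and WT KPC mice (right), unwrapped to lie within 12 h; filled points have an unadjusted p under 0.01 in the group on the vertical axis. The solid line marks equal times and the dotted lines 3 h on either side, which hold 89.0% and 86.0% of the points.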

How the data were processed

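Poly-A RNA of the tibialis anterior was sequenced from 48 mice, and all 12 WT control libraries are described here. The authors deposited gene counts in 12 tables and FPKM values in 1 table for mm39. The methods name STAR and HTSeq, whereas the submitters' processing notes name HISAT2 2.0.5 and DESeq2 1.20.0. The strand setting of the counting is not given in the sources used here. The deposited count tables leave out genes with no or very few counts in the 4 libraries of a table, and these were set to 0 (30 values of tested genes with an FPKM above 0). Columns of the authors' fold changes and p-values were not used. Every sample column was mapped to a labelled sample.

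Genes with a mean of at least 1 FPKM entered the sinusoid fit (F test, Benjamini-Hochberg) in Python 3.11.15 with numpy 2.4.6 and scipy 1.17.1. Differences in rhythm used FPKM of 24 libraries. Alternatives used edgeR 4.0.16, limma 3.58.1, and DESeq2 1.42.0 in R 4.3.3. Scripts were tested on simulated data. Each library is another mouse, and replicate numbers 1 and 2 did not pair mice across times. Between the 15 pairs of times, the correlations of the replicate deviations lay between -0.107 and 0.107, with 1 above 0.1. Intervals cover counting error only. FPKM lacks counting error, so low genes are less precise.

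Members, lists, and tests were chosen with earlier results of these data known. Named genes are the tested core clock genes, the 12 other genes with the lowest p, the 3 with the largest relative amplitude in each window, and in each other list up to 4 called genes with the lowest p or, with none called, the gene with the lowest p. The fit without CT26, the removal of the trend on gene length, and edgeR with the replicate block were added after the data were seen. Further members named in a list were chosen after their values were seen. The values of 1 tested clock gene are not reported here.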

Additional observations from a re-analysis of the deposited data

How the results depend on the processing

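The count of 435 rhythmic genes was the least stable result. It was 423 on log2(FPKM + 1), 413 on log2(FPKM + 0.1), 316 among genes of at least 5 FPKM, and 553 with the trend on gene length removed. It was 150 without a filter on low values, where 27209 genes were tested, 684 with limma on log2(FPKM + 1), 952 with edgeR, 955 with edgeR and DESeq2 size factors, 1692 with DESeq2, 1488 with limma over the 6 times as separate levels, 1049 at an unadjusted p under 0.01, and 241 without both CT26 libraries. With the replicate block it was 280 (751 in edgeR), and the numbers did not pair mice. The leave-one-out counts were 193 and 289 (without CT18 replicate 1 and 2), 215 and 330 (CT22), 257 and 202 (CT26), 324 and 279 (CT30), 138 and 247 (CT34), and 218 and 217 (CT38). Shared with the 435 were 401 genes on log2(FPKM + 1), 388 in edgeR, 416 in DESeq2, 269 with the block, and 164 without CT26.

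The share of peaks in subjective day, 47.6%, was 53.8% at 5 FPKM, 37.4% in edgeR, 40% with DESeq2 size factors in edgeR, 53.9% without CT26, and 42.8% to 51.0% with 1 library left out. Differences in rhythm stayed at 0 genes in each setting run. Of 90 named genes 70 were called. Of these 70, 28 lost the call without CT26, 6 with the block, 2 on log2(FPKM + 1), and 1 in edgeR, which called 10 more of the 90.

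With 2 mice at each of 6 times on a single day, a 24 h period was imposed and not estimated, and sharp or 12 h patterns are underrated. Genes under 1 FPKM were not tested.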
